A study of Rattus norvegicus with 16 samples.

Results

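Alb and Gc are a pair of related plasma protein genes, described here in rat abdominal wall under adhesive and non-adhesive implants. They are 2 of the 32552 genes counted in each library. They were chosen by their measured levels in earlier results of these data, Alb for its difference between the implants on day 3 and Gc as a relative of Alb on the same chromosome. Alb is ENSRNOG00000002911, and Gc, found by its symbol, is ENSRNOG00000003119. The day 3 implant comparison is therefore given as a description without a test.

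The study asked how an implant that bonds to tissue differs at its tissue interface from the same implant without bonding. Messenger RNA was sequenced in 16 libraries from female Sprague Dawley rats aged 12 weeks. Each of 4 groups had 4 libraries: adhesive implants on day 14, non-adhesive implants on day 14, adhesive implants on day 3 and non-adhesive implants on day 3 after implantation. Non-adhesive implants had been swollen in PBS until they no longer bonded and were sutured in place, so the sutures are part of every comparison of implants. No genotype or drug differed between the groups. The sources used here leave unstated whether every library is from its own rat, and p-values therefore measure the spread between libraries. The days are those of the sample labels, and other passages of the deposited text name other days. Each library held 13852126 to 24858976 counts in genes, and every library of day 14 held fewer than every library of day 3. A batch that follows the day cannot be told apart from the day itself. Levels are given in CPM, the counts of a gene for a library of fixed size, after scaling of all 16 libraries by TMM, which corrects library totals for a few very abundant genes. Adhesive replicate 1 of day 14 had the lowest sums of leukocyte genes (525 CPM) and of matrix genes (2610 CPM) in its group and a TMM factor of 0.668. Non-adhesive replicate 4 of day 14 likewise had the lowest sums of leukocyte genes (298 CPM) and of matrix genes (3360 CPM) in its group, and its TMM factor of 0.619 was the lowest of all libraries.

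Albumin, the product of Alb, is the main protein of blood plasma, where it carries fatty acids, bilirubin and hormones and holds fluid in the vessels. The product of Gc is the vitamin D binding protein, which carries vitamin D metabolites and also binds actin released from damaged cells. Both belong to 1 gene family with alpha-fetoprotein and afamin, and hepatocytes of the liver make most of both proteins. Plasma brings albumin protein into every tissue, whereas the counts here come from messenger RNA in the abdominal wall.

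In the coordinates of the count files, Alb lies on chromosome 14 from 19176277 to 19191863 on the minus strand, with an exonic length of 2069 bases. Gc lies on the same chromosome from 20266891 to 20302581 on the plus strand, with 1795 exonic bases. The stretch between them measures 1075 kb, and no annotated gene overlaps either. The genome build of the files could not be settled, because the labels name a mouse assembly, the paper names a rat assembly, and chromosome 1 of the files runs to base 282724300.

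The sequences before both starts are shown because the levels of both genes went together over the libraries. They come from RefSeq on the rat assembly GRCr8, which is not the build of the files, and each runs 5′ to 3′ over the 250 bases before the annotated start. Capitals mark matches to the binding sequence of HNF1, a transcription factor of liver and kidney, and to CCAAT.
Alb, chr14:17906980-17907229, minus strand: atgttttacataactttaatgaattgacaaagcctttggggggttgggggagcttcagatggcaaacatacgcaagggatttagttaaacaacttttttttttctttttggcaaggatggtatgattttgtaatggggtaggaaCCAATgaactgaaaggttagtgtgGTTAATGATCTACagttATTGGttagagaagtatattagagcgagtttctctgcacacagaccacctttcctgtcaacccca
Gc, chr14:18916005-18916254, plus strand: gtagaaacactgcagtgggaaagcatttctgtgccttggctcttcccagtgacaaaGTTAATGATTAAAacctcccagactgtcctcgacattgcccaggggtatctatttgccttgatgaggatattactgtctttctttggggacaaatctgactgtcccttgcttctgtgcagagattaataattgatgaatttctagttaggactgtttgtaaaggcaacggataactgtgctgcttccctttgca
The HNF1 sequence searched was GTTAATNATTAAC on both strands, with at most 2 mismatches in its 12 fixed letters. Alb held GTTAATGATCTAC with 2 mismatches, from 82 to 70 bases before the start, and Gc held GTTAATGATTAAA with 1 mismatch, from 194 to 182 bases before it. Because the searched sequence reads the same on both strands, the search of the second strand could only find the same stretch again. Of 33469 rat promoters, 365 (1.09%) held such a match in the same window. The window of Alb also held CCAAT once on each strand, the copy on the opposite strand printed as ATTGG, and that of Gc held none, where 34.0% of promoters held at least 1. The windows of Ankrd17 and Cox18, which lie between Alb and Gc, held neither sequence. These are matches of letters only, and no binding was measured.

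Every adhesive library held more Alb and more Gc than every non-adhesive library of the same day, with TMM scaling and with library totals. With TMM scaling, 4.54% of the genes tested did so on day 14. On day 3, the day for which Alb was chosen, 1.4% did so. Per kb of exonic length, Alb was the more abundant gene in all 16 libraries, by 8.56 to 19.9 times. On day 14, Alb stood at 30.2, 19.2, 21.7 and 20.3 CPM in replicates 1 to 4 of the adhesive implants, against 6.37, 8.87, 15.5 and 15.5 CPM in those of the non-adhesive implants. Every adhesive library lay above every non-adhesive library. Adhesive replicate 1, one of the pair with low leukocyte and matrix sums, was the highest of all 16. With TMM scaling, non-adhesive replicates 3 and 4 lay well above the other non-adhesive libraries of that day. With library totals only replicate 3 did so, at 15.3 CPM, as replicate 4 had 9.57 CPM against 8.84 CPM in replicate 2. On day 3, Alb stood at 17.9, 12.7, 12 and 10.6 CPM at adhesive implants, against 4.83, 7.07, 6.92 and 6.41 CPM at non-adhesive implants. The groups did not overlap on this day either, and replicate 1 was the highest adhesive and the lowest non-adhesive library.

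Gc was scarce. Each adhesive library of day 14 held 27, 18, 17 or 18 counts of it, against 6, 8, 11 or 8 in the non-adhesive libraries, in replicate order. The day 3 libraries held 22, 29, 18 and 22 counts at adhesive and 11, 15, 17 and 14 at non-adhesive implants. In CPM, Gc stood on day 14 at 2.92, 1.36, 1.48 and 1.41 at adhesive implants, against 0.348, 0.546, 0.675 and 0.831 at non-adhesive implants. Adhesive replicate 1 was high, as it was for Alb, and the groups did not overlap, as was so for 4.54% of genes in that direction. On day 3, Gc stood at 1.19, 1.25, 0.804 and 0.733 CPM at adhesive implants, against 0.314, 0.717, 0.657 and 0.571 CPM at non-adhesive implants. The lowest adhesive and the highest non-adhesive library were close, at 0.733 and 0.717 CPM, with 22 and 15 counts.

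**Figure D1:**
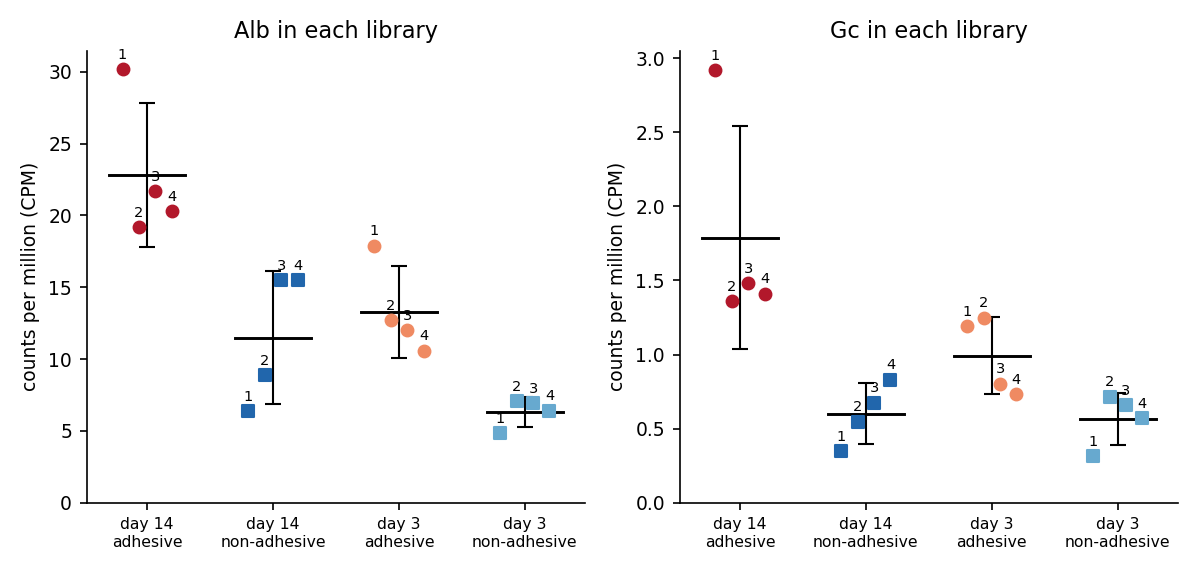
CPM (vertical axis, from 0) of Alb (left) and Gc (right) in each of the 16 libraries, with replicate numbers, adhesive implants as circles and non-adhesive implants as squares, a line at each group mean and bars of 1 SD (n = 4). Every adhesive library sits above every non-adhesive library of the same day, as for 4.54% of genes on day 14 and 1.4% on day 3. Adhesive replicate 1 of day 14 is the highest for both genes, at 30.2 CPM of Alb and 2.92 CPM of Gc.

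With TMM scaling, the group means kept 1 order in both genes, with adhesive implants on day 14 highest and non-adhesive implants on day 3 lowest. Alb averaged 22.8 ± 5 CPM at adhesive implants on day 14, 13.3 ± 3.21 at adhesive implants on day 3, 11.5 ± 4.64 at non-adhesive implants on day 14 and 6.31 ± 1.03 at non-adhesive implants on day 3 (SD, n = 4 each). In that order, only the groups at the top, adhesive implants on day 14 and on day 3, did not overlap, as was so for 12.6% of genes in that direction. The libraries of adhesive implants on day 3 overlapped those of non-adhesive implants on day 14, and these overlapped non-adhesive implants on day 3. Gc averaged 1.79 ± 0.752 CPM at adhesive implants on day 14, 0.993 ± 0.262 at adhesive implants on day 3, 0.6 ± 0.205 at non-adhesive implants on day 14 and 0.565 ± 0.177 at non-adhesive implants on day 3. The same neighbours overlapped as for Alb. With library totals the order of Alb was kept, but Gc was lowest at non-adhesive implants on day 14, at 0.52 CPM against 0.675 CPM on day 3, and the adhesive groups of both days overlapped in both genes.

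Per kb of exonic length, Alb reached 11 CPM and Gc 1 CPM at adhesive implants on day 14. On this scale, Alb stood above 63.6% and Gc above 17.9% of the genes tested, a middling and a low level. At non-adhesive implants on day 14 the values were 5.58 CPM per kb for Alb and 0.334 for Gc. The ratio of Alb to Gc, per kb, averaged 11.6 ± 1.77 at adhesive and 16.5 ± 2.43 at non-adhesive implants on day 14. On day 3 it averaged 11.9 ± 2.02 at adhesive and 10.2 ± 2.13 at non-adhesive implants (SD, n = 4 each). The ratio was thus highest at non-adhesive implants on day 14 (14.1 to 19.9), apart from all other libraries (8.56 to 13.3), a description that was not tested.

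The depth limits Gc more than Alb. Summed over 4 libraries, Gc had 80 counts (exact 95% Poisson interval 63.4 to 99.6) at adhesive and 33 (22.7 to 46.3) at non-adhesive implants on day 14. For Alb the sums were 1040 (978 to 1110) and 641 (592 to 693). Counting alone gives a coefficient of variation of 34.8% for Gc at non-adhesive implants on day 14, where 34.1% was measured. For Alb the same group measured 40.2%, against 7.9% from counting. The intervals cover counting error only.

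On day 14, which was not the contrast that chose Alb, the implant effect was a log2 fold change of 0.98 for Alb (standard error 0.3, 1.98-fold) and 1.58 for Gc (standard error 0.39, 2.99-fold). Adjusted over 13557 genes, neither passed edgeR's quasi-likelihood test, with adjusted p = 0.17 for Alb and 0.12 for Gc, and unadjusted p = 0.01 and 0.0031. Here a gene was called if its adjusted p was 0.05 or less and its level changed by 1 or more on the log2 scale, and edgeR called 0.155% of genes as higher. Both genes were among the 4.54% of genes whose adhesive libraries all lay above the non-adhesive ones. With DESeq2, the tool of the study's methods, Gc was called (log2 fold change 1.6, adjusted p = 0.016) among 1.14% of genes called higher. Alb had an adjusted p of 0.046 with DESeq2 and missed the limit on the fold change, where 3.38% of genes had such a p and were higher. Without non-adhesive replicate 4, edgeR called both genes, Alb at 1.14 (adjusted p = 0.034) and Gc at 1.73 (adjusted p = 0.028), in a fit that called 1151 of 13832 genes. Without adhesive replicate 1, the values were 0.83 for Alb (adjusted p = 0.37, edgeR) and 1.26 for Gc (adjusted p = 0.25, edgeR). When all 16 libraries were fitted together, edgeR called Gc (adjusted p = 0.046). Over the alternatives other than left-out libraries, the adjusted p ran from 0.046 to 0.25 for Alb and from 0.016 to 0.24 for Gc.

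On day 3, the log2 fold change was 1.08 for Alb (standard error 0.21, 2.11-fold) and 0.82 for Gc (standard error 0.35, 1.77-fold). Alb was chosen for its value here, and neither gene was tested in this contrast. Of all genes, 1.4% had every adhesive library above every non-adhesive one on that day. On both days together 49 of 13386 genes (0.366%) did so, Alb and Gc among them. Because Alb was chosen for its difference on day 3, this share is a description and does not measure how rare the pattern is.

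No difference of the implant effect between the days passed for either gene. The effect on day 14 minus that on day 3 was -0.09 on the log2 scale for Alb (standard error 0.38, 95% interval -0.83 to 0.65). For Gc it was 0.77 (standard error 0.53, 95% interval -0.26 to 1.8), and 0.44 without adhesive replicate 1 of day 14. Both had an adjusted p of 1 with edgeR, which called 0.00685% of 14601 genes as higher. The intervals are a normal approximation from the standard error and are narrower than ones matched to the test on so few libraries. They leave room for a change of the effect in either direction. The day 3 libraries in which Alb was chosen enter this difference and the comparisons between days.

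**Figure D2:**
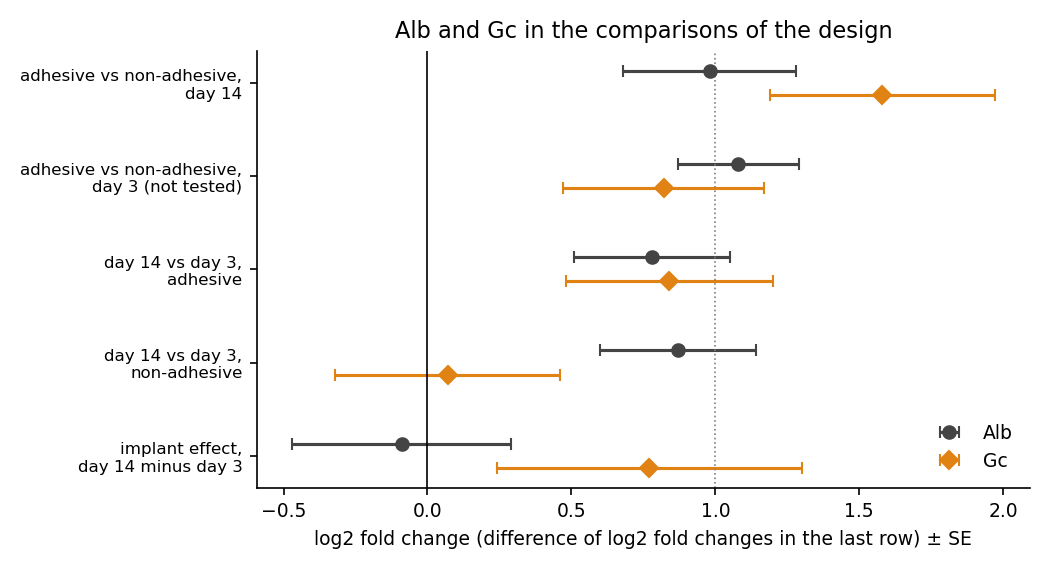
Log2 fold change (horizontal axis) of Alb (circles) and Gc (diamonds) in each comparison, with bars of 1 standard error and a dotted line at 1, the limit for a call. The implant effect of Alb is 0.98 on day 14 and 1.08 on day 3, while that of Gc is 1.58 on day 14 and 0.82 on day 3.

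Between the days, mean Alb was higher on day 14 than on day 3 under both implants with TMM scaling and with library totals, while Gc at non-adhesive implants changed sign with the scaling. At adhesive implants the log2 fold change of day 14 against day 3 was 0.78 for Alb (standard error 0.27, edgeR adjusted p = 0.062) and 0.84 for Gc (standard error 0.36, adjusted p = 0.12). Without adhesive replicate 1 of day 14, Gc was at 0.46 there (adjusted p = 0.43, edgeR) and Alb at 0.57 (adjusted p = 0.22, edgeR). Over the alternatives other than left-out libraries, the adjusted p of Alb at adhesive implants ran from 0.028 to 0.43. At non-adhesive implants it was 0.87 for Alb (standard error 0.27, adjusted p = 0.041), under the limit of 1 for a call, where 8.67% of genes were higher at such a p whatever their fold. For Gc it was 0.07 there (standard error 0.39, adjusted p = 0.92, edgeR). edgeR called 4.39% of genes as higher on day 14 at adhesive and 5.32% at non-adhesive implants. The adjusted p of Alb at non-adhesive implants depended on single libraries and on the fit. Without non-adhesive replicate 4 of day 14, Alb was at 0.63 (adjusted p = 0.11, edgeR), and without replicate 3 at 0.69 (adjusted p = 0.12, edgeR). Without replicate 1, 3 or 4 of day 3 the adjusted p with edgeR was 0.12, 0.083 and 0.088. Without replicate 1 of day 14, Alb was called (1.07, adjusted p = 0.016, edgeR). The adjusted p was 0.085 with the replicate number as a block, 0.076 with limma-voom, 0.068 without the filter on low counts, 0.14 in a fit of the 8 non-adhesive libraries and 0.016 with DESeq2. With library totals in place of TMM, the median of all genes moved to -0.56 at adhesive and -0.42 at non-adhesive implants, and the change of Alb was 0.21 (adjusted p = 0.43, edgeR) at adhesive and 0.4 (adjusted p = 0.17, edgeR) at non-adhesive implants. That of Gc was 0.25 at adhesive and -0.37 at non-adhesive implants.

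No tested gene between or beside Alb and Gc was called on day 14. There were 9 annotated genes between them, of which 5 had no count in any library and 3 were tested on day 14. Ankrd17, which encodes an ankyrin repeat protein, had means of 71.3 ± 8.78 CPM in adhesive and 59.9 ± 3.05 CPM in non-adhesive libraries of day 14 (log2 fold change 0.25, standard error 0.12, edgeR adjusted p = 0.38). Cox18, which helps to assemble cytochrome c oxidase in mitochondria, averaged 9.4 ± 1.53 against 11 ± 2.68 CPM (log2 fold change -0.23, standard error 0.21, edgeR adjusted p = 0.65). The remaining tested gene, ENSRNOG00000027463, has no symbol here and averaged 0.624 CPM in adhesive and 1.97 CPM in non-adhesive libraries (log2 fold change -1.63, standard error 0.81, edgeR adjusted p = 0.38).

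On the far side of Alb, the 3 nearest genes had 14 to 82 counts each over all 16 libraries, against 3548 for Alb. RefSeq places the genes of alpha-fetoprotein and afamin next to Alb on that side in GRCr8, but the identifiers in the files carry no symbol here and were left unnamed. On the far side of Gc, Slc4a4, a sodium bicarbonate cotransporter, averaged 3.59 CPM in adhesive and 2.59 CPM in non-adhesive libraries of day 14. Dck, the deoxycytidine kinase gene, averaged 2.41 against 2.32 CPM. The log2 fold changes were 0.47 (standard error 0.41) for Slc4a4 and 0.04 (standard error 0.26) for Dck (edgeR adjusted p = 0.64 and 0.96).

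**Figure D3:**
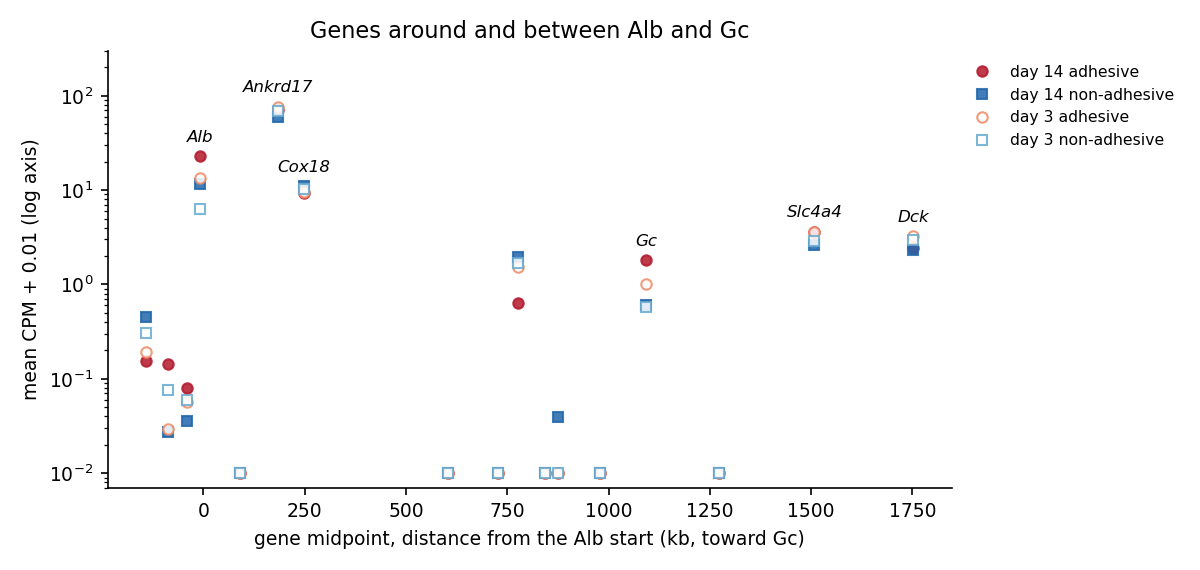
Mean CPM plus 0.01 in each group (vertical log axis, n = 4 libraries) of Alb, Gc, the genes between them and the 3 genes on either side, against the distance of each gene's midpoint from the start of Alb in kb. Alb and Gc spread by group, while Ankrd17 and Cox18 between them stay near 71.3 and 9.4 CPM, their means at adhesive implants on day 14. ENSRNOG00000027463, also between them, spreads too, from 0.624 CPM at adhesive to 1.97 CPM at non-adhesive implants on day 14.

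Alb and Gc went up and down together from library to library. Over the 16 libraries, the Pearson correlation of their log2 CPM was 0.9 (Spearman 0.94), and with the group means removed it was 0.86. Both genes are read from the same libraries with the same scaling factors, so these values are a description. Among 13153 genes, nearly all with a mean of at least 1 CPM, Gc ranked 7 in likeness to Alb, and Alb ranked 2 in likeness to Gc. Gc itself averaged 0.988 CPM and was added to this ranking.

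Among the 1908 genes with a symbol in this ranking, Serpinc1, which encodes the clotting inhibitor antithrombin, had a correlation of 0.87 with Alb and 0.83 with Gc. Serpinc1 averaged 5.71 ± 1.02 CPM in adhesive and 4.05 ± 0.883 CPM in non-adhesive libraries of day 14 (SD, n = 4 each). These groups overlapped, and the log2 fold change was 0.5 (standard error 0.23, edgeR adjusted p = 0.34). Gjb1, which encodes the gap junction protein connexin 32 of hepatocytes and Schwann cells, had 0.87 with each. Gjb1 averaged 2.6 ± 0.696 CPM in adhesive and 1.02 ± 0.325 CPM in non-adhesive libraries of day 14 (SD, n = 4 each). These groups did not overlap, as was so for 4.54% of genes in that direction. The log2 fold change was 1.36 (standard error 0.33, edgeR adjusted p = 0.11). DESeq2 called Gjb1 (log2 fold change 1.38, adjusted p = 0.0068), among 1.14% of genes called higher. Serpinc1 and Gjb1 were picked for their likeness to Alb and Gc over the same libraries. A higher level at adhesive implants is thus partly built in, and these values are a description.

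Zfp365, a zinc finger gene, correlated at 0.84 with Alb and 0.83 with Gc, and Bpnt1, a bisphosphate nucleotidase gene, at 0.83 with Alb. RGD1309748 correlated at 0.84 with Gc. Of these 3, Zfp365 was called on day 14 (log2 fold change 1.4, standard error 0.21, edgeR adjusted p = 0.048), among 0.155% of genes called higher by edgeR. It averaged 17.4 ± 3.02 CPM in adhesive and 6.56 ± 1.62 CPM in non-adhesive libraries (SD, n = 4 each). Zfp365 was picked by likeness in the same way, so its call is a description too. With the group means removed, the correlation with Alb was 0.68 for Serpinc1, 0.46 for Gjb1, 0.48 for Zfp365 and 0.53 for Bpnt1, each lower than the 0.86 of Gc. The correlation with Gc was then 0.77 for RGD1309748, 0.74 for Serpinc1, 0.63 for Gjb1 and 0.47 for Zfp365. The genes that ranked above Gc in likeness to Alb have no symbol here and were not compared in this way. The promoter windows of Serpinc1, Gjb1, Zfp365 and Bpnt1 held no HNF1 match.

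**Figure D4:**
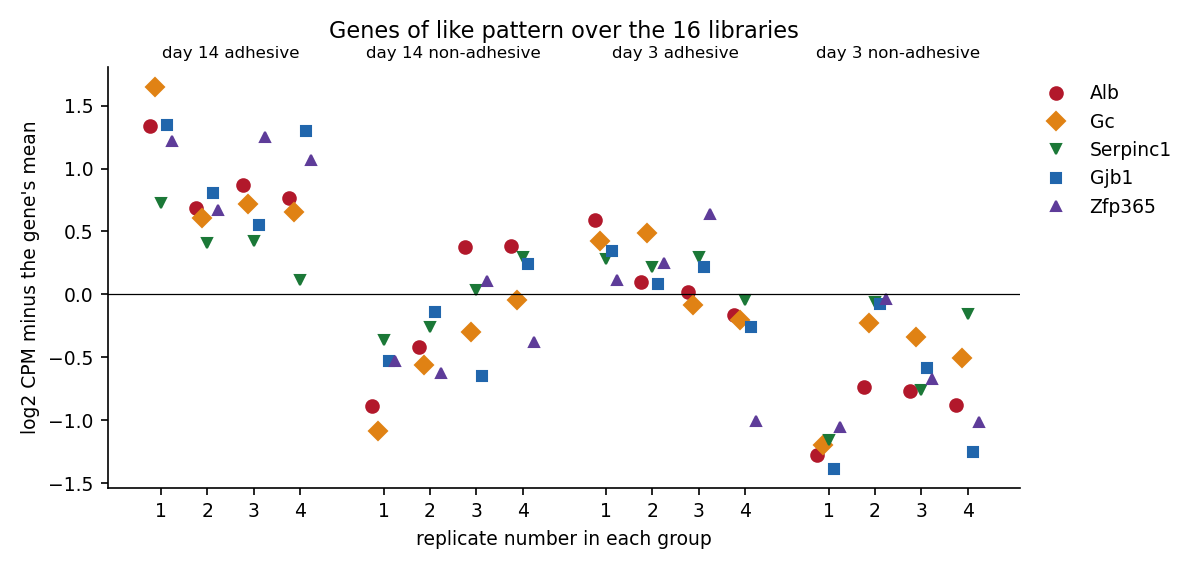
Log2 CPM minus the mean of each gene over the 16 libraries (vertical axis) for Alb, Gc and 3 of the genes most like Alb, Serpinc1, Gjb1 and Zfp365, by group and replicate number. The points of Alb (circles) and Gc (diamonds) lie high in all 4 adhesive libraries of day 14 and low in replicate 1 of both non-adhesive groups.

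Other genes that hepatocytes express had fold changes on both sides of 0. Symbols were at hand for 10 of 82 other plasma protein genes of hepatocytes and for 12 of 35 hepatocyte enzymes and receptors. On day 14, 6 of the 8 tested plasma protein genes had a positive log2 fold change, with a median of 0.36 against -0.04 over all genes. For the enzymes and receptors, 3 of 8 were positive, with a median of -0.22. edgeR called none of these 16 genes. DESeq2 called 2 as higher at adhesive implants, where it called 1.14% of all genes higher. Azgp1 was among these 2 (adjusted p = 0.045 with DESeq2 and 0.14 with edgeR). Azgp1, which encodes the secreted zinc-alpha-2-glycoprotein of liver and fat, stood at 1.62, 1.67, 0.959 and 0.941 CPM at adhesive implants on day 14, against 0.348, 0.341, 0.43 and 0.831 CPM at non-adhesive implants. Azgp1 was scarce, with 15, 22, 11 and 12 counts in these adhesive and 6, 5, 7 and 8 in these non-adhesive libraries. Its libraries did not overlap on either day, as was so for 0.366% of genes in that direction.

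Other hepatocyte genes had values on the opposite side. Crp, the acute phase gene of C-reactive protein, had a log2 fold change of -0.68 on day 14 (standard error 0.36, edgeR adjusted p = 0.41). Tcn2, which encodes the vitamin B12 carrier transcobalamin, had -0.67 (standard error 0.37, adjusted p = 0.43, edgeR). Nr5a2, which encodes a nuclear receptor of liver and gut, had -0.81 (standard error 0.5, adjusted p = 0.49, edgeR). The summed level of the 10 plasma protein genes was 162 to 229 CPM in adhesive and 151 to 249 CPM in non-adhesive libraries on day 14. Serpinc1, Azgp1 and Apoa2 averaged 5.71, 1.3 and 1.04 CPM at adhesive implants on day 14. Other genes of the list therefore made up most of this sum, which says little of the scarce ones. For the 12 enzymes and receptors it was 19.5 to 27.5 CPM in adhesive and 20.5 to 25 CPM in non-adhesive libraries. No gene with a symbol of either list was at 0 in any group.

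**Figure D5:**
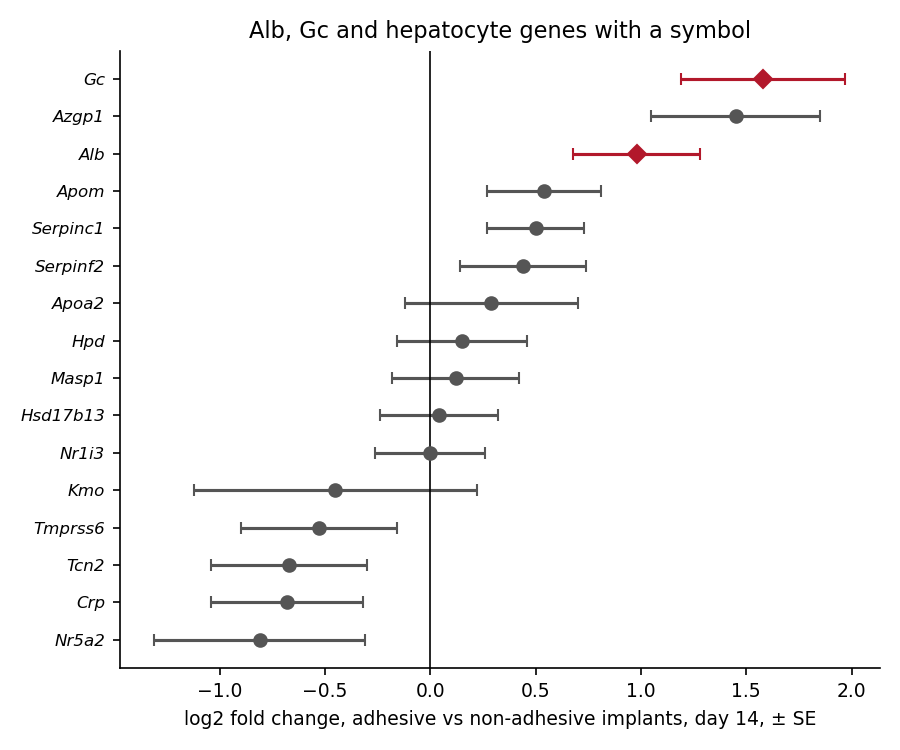
Log2 fold change of adhesive against non-adhesive implants on day 14 (horizontal axis) with bars of 1 standard error for Alb and Gc (diamonds) and 14 of the tested hepatocyte genes with a symbol (circles), sorted by value. Gc at 1.58 and Alb at 0.98 stand near the top with Azgp1 at 1.45, and Nr5a2 at -0.81 is the lowest shown.

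On day 3, 5 of 9 tested plasma protein genes and 9 of 12 enzymes and receptors had a positive log2 fold change, with medians of 0.07 and 0.38 against -0.01 over all genes, and none was called by edgeR or DESeq2. Otc, the urea cycle enzyme ornithine transcarbamylase, averaged 0.774 ± 0.145 CPM in adhesive and 0.302 ± 0.0588 CPM in non-adhesive libraries of day 3 (SD, n = 4 each). These groups did not overlap, as was so for 1.4% of genes in that direction. On day 14, Otc averaged 0.882 ± 0.219 CPM in adhesive and 0.5 ± 0.131 CPM in non-adhesive libraries (SD, n = 4 each). Those groups did not overlap in CPM either, but they held only 11, 9, 10 and 10 counts against 9, 9, 9 and 3. Otc was too scarce on day 14 to be tested, and the 4.54% of genes without overlap are a share of tested genes only. Between the days, edgeR called Apom, an apolipoprotein gene, as higher on day 14 at adhesive implants (log2 fold change 1.03, adjusted p = 0.024). It called Serpinf2, the gene of the plasmin inhibitor alpha-2-antiplasmin, as lower on day 14 at non-adhesive implants (log2 fold change -1.56, adjusted p = 0.012). At adhesive implants Serpinf2 had -1.11 and just missed the limit with edgeR (adjusted p = 0.05 after rounding), and DESeq2 called it as lower at both (adjusted p = 0.024 at adhesive and 0.00077 at non-adhesive implants).

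Of 17 listed genes of vitamin D handling and of actin scavenging, 4 had a symbol, and of 9 genes of albumin uptake and recycling only the scavenger receptor gene Scarb1 did. On day 14, 3 of the 4 were tested, all with a negative log2 fold change and none called, with a median of -0.17. Pfn1, which encodes the actin monomer binding protein profilin, was lower on day 14 than on day 3 at both implants, by a log2 fold change of -0.65 at adhesive (adjusted p = 0.016, edgeR) and -0.71 at non-adhesive implants (adjusted p = 0.0089, edgeR), under the limit for a call. Scin, which encodes the actin severing protein scinderin, had -2.55 at adhesive implants between the days (adjusted p = 0.078 with edgeR and 0.025 with DESeq2, which called it) and -0.05 at non-adhesive implants (adjusted p = 0.97, edgeR). Rxrg, a retinoid X receptor gene, had 0.97 at adhesive (adjusted p = 0.18, edgeR) and 1.4 at non-adhesive implants (adjusted p = 0.062 with edgeR and 0.023 with DESeq2, which called it). Scarb1 had a log2 fold change of -0.2 between the implants on day 14 (standard error 0.3, edgeR adjusted p = 0.8).

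Markers of the other cells of the tissue were read from the same libraries. Over all genes, 45.7% had a positive log2 fold change on day 14, with a median of -0.04. The lists were chosen with earlier results of these data known, so these counts are a description. On day 14, 21 of 23 skeletal muscle fibre genes had a positive log2 fold change (median 0.42), and their summed level was 21600 to 35300 CPM in adhesive and 14200 to 34700 CPM in non-adhesive libraries. For fibroblast and matrix genes, 0 of 15 were positive (median -1.51), with sums of 2610 to 14100 CPM in adhesive and 3360 to 22900 CPM in non-adhesive libraries. edgeR called 1 of them as lower, where it called 36 of 13557 genes in either direction. DESeq2 called 3 of them as lower, where it called 513 of 13655 genes in either direction. For leukocyte genes, 3 of 20 were positive (median -0.27), with sums of 525 to 1020 CPM in adhesive and 298 to 1340 CPM in non-adhesive libraries. The 2 mesothelial genes with a symbol, of 15, summed to 28.8 to 39 CPM in adhesive and 28.5 to 71.9 CPM in non-adhesive libraries. The 4 adipocyte genes with a symbol, of 9, summed to 164 to 253 CPM in adhesive and 182 to 434 CPM in non-adhesive libraries. No marker with a symbol was at 0 in any group.

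On day 3, 15 of 23 muscle fibre genes (median 0.16), 18 of 20 leukocyte genes (median 0.4) and 0 of 15 fibroblast and matrix genes (median -0.9) had a positive log2 fold change. Over all genes, 48.5% were positive on that day, with a median of -0.01. Between the days, edgeR called 7 of 23 muscle fibre genes as higher on day 14 at adhesive implants and 7 at non-adhesive implants. Of all genes, it called 4.39% and 5.32% as higher there. The part of these cell types in the values of Alb and Gc was not tested. In bulk tissue, more cells of a type and more RNA per cell cannot be told apart.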

How the data were processed

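Messenger RNA of 16 libraries was sequenced. Per the submitters' notes, the authors used bcl2fastq 2.17 and FastQC on the raw reads, cutadapt for trimming, STAR for alignment and featureCounts for counting. They deposited raw counts, as whole numbers, of 32552 genes for each library. Strandedness is not given in the sources used here. Symbols came from the part of the supplementary gene sheets that was at hand, which names 2007 genes, and only the symbols were used. No column of another series was present.

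Low counts were removed with filterByExpr, libraries scaled by TMM, and genes tested in edgeR 4.0.16 (R 4.3.3) by its robust quasi-likelihood F-test. P-values were adjusted after Benjamini and Hochberg over all genes tested. Each day was fitted alone for the implants (13557 genes on day 14, 14223 on day 3), and all 16 libraries together for the days and the difference of effects (14601 genes). Levels in CPM used TMM over 16 libraries, and log2 CPM a prior count of 2. Alternatives were DESeq2 1.42.0 (genes averaging over 10 counts), DESeq2 size factors in edgeR, limma-voom (limma 3.58.1), dropping the filter or the fold-change limit, a block for the replicate number, other choices of libraries in the fit, and each library left out. Library totals in place of TMM, and the alternatives for the likeness of Alb and Gc, were added after the data were seen. The tests were run on simulated data first. Promoters were searched with Python 3.11.15 (numpy 2.4.6, pandas 2.3.3), and figures drawn with matplotlib 3.10.9. Of 9 symbols looked up in the RefSeq promoter table, 8 matched 1 entry.

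The genes named are Alb, Gc, their neighbours (all between them and 3 on either side), members of 9 lists with a symbol, and the 5 genes with a symbol and a mean of at least 1 CPM most correlated with each. Some genes that this rule gives are not reported here. The members and lists were chosen with earlier results of these data known.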

Additional observations from a re-analysis of the deposited data

Results flagged for a closer look

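Adhesive replicate 1 of day 14 stood apart from its group in Gc, at 2.92 CPM (27 counts), where the other 3 libraries had 1.36 to 1.48 CPM. Its gap to the next library, as a share of the range of the group, was above the critical value of Dixon's test for 4 samples. In CPM from library totals the same library had 1.95 and the others 1.13 to 1.25. It also had the highest Alb, at 30.2 CPM, which did not exceed the critical value. Its TMM factor was 0.668, at the low end of the 0.619 to 1.41 of all libraries. It had the lowest sums of leukocyte genes (525 CPM) and of matrix genes (2610 CPM) in its group, and their part in its Gc was not tested. Of 32 sets of a gene and a group that were examined, 1 exceeded the critical value, and chance gives about 1 in 20.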

How the results depend on the processing

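For Gc on day 14, DESeq2 gave a log2 fold change of 1.6 and the fit of 16 libraries 1.59, and both called it. Without a limit on the fold change, the 0.87 of Alb at non-adhesive implants between the days was called. Library totals turned the change of Gc at non-adhesive implants to -0.37, and limma-voom turned the difference of the implant effect of Alb to 0.01. The causes were not tested. Leaving out 1 library gave these ranges. On day 14 the implant effect was 0.78 to 1.16 for Alb and 1.26 to 1.73 for Gc, and each was called in 1 of 8 fits, the one without non-adhesive replicate 4. On day 3 it was 0.92 to 1.16 for Alb and 0.62 to 0.95 for Gc. Between the days it was 0.57 to 0.91 for Alb and 0.46 to 0.95 for Gc at adhesive implants, and 0.63 to 1.07 for Alb and -0.19 to 0.27 for Gc at non-adhesive implants. The difference of effects was -0.29 to 0.1 for Alb and 0.44 to 0.99 for Gc. The single libraries that turned a sign were non-adhesive replicate 1 of day 3 (-0.19) and replicates 3 (-0.01) and 4 (-0.16) of day 14 for Gc between the days. For the difference of effects of Alb they were adhesive replicate 1 of day 3 (0.09) and non-adhesive replicate 1 of day 3 (0.03) and replicates 3 (0.09) and 4 (0.1) of day 14. The likeness of Alb and Gc ran from 0.85 to 0.91 over its alternatives.

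Sample titles share replicate numbers between the implants, but no label says that a number marks a shared animal, litter or batch. Deviations of same-numbered libraries correlated at -0.43, 0.55, 0.27 and 0.2 on day 14 and at -0.37, -0.38, 0.11 and 0.32 on day 3, and not every library correlated best with its own number. With the number as a block, the effect on day 14 was 1.04 for Alb and 1.54 for Gc, and no call of either gene changed in any comparison. On day 14 edgeR called 0 genes with the block (1973 at an unadjusted p under 0.05) and 36 without it. Between the days it called 796 with the block and 1186 without it at adhesive implants, and 950 against 1325 at non-adhesive implants. DESeq2 called 513 genes on day 14 and 73 on day 3, against 36 and 0 with edgeR, where 1022 genes had an unadjusted p under 0.05 on day 3. Depth limits Gc, with 6 to 29 counts in a library.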
